A study of Mus musculus with 20 samples.

Results

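Open chromatin was examined at 8 genes that mark mast cells, basophils and eosinophils: Cpa3, Hdc, Prg2 and Epx, which encode granule proteins and enzymes, Fcer1a, Ms4a2 and Il1rl1, which encode receptors, and Mitf, which encodes a transcription factor. Each of the 125343 ATAC-seq peaks of the study took the protein-coding gene that its centre lay in, or otherwise the gene with the nearest boundary, and 61 peaks took one of these 8 genes. Mitf had 24 of them, Il1rl1 14, Hdc 9, Cpa3 8, Ms4a2 3, Epx 2 and Prg2 1. Fcer1a had none, and the peak nearest to it lay 86600 bp away and took Ackr1. A gene name therefore gives a peak's place and not the gene that it regulates.

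The libraries came from bone marrow cells of C57Bl/6J mice aged 3 to 4 months, sorted as Lin-cKit+Sca1+ (LSK) cells, a compartment rich in multipotent progenitors and blood stem cells. There were 4 libraries for each of 5 genotypes and each library was a pool of 2 mice, so p-values measure the spread between pools. The controls, called WT, were +/+;Vav-Cre, and thus carried the recombinase that Vav regulatory DNA expresses in blood cells. The 3 Idh genotypes carried Vav-Cre with 1 lox-stop-lox allele that Cre switches on: Idh1LSL-R132H/+, Idh2LSL-R140Q/+ or Idh2LSL-R172K/+, called here Idh1 R132H, Idh2 R140Q and Idh2 R172K. The Tet2-/- mice, called Tet2 KO, have no Cre in their label, so loss of Tet2 and absence of Vav-Cre cannot be told apart in their comparison with WT. The mutant IDH enzymes make 2-hydroxyglutarate, which can inhibit 2-oxoglutarate-dependent enzymes such as TET2, an enzyme that oxidizes 5-methylcytosine.

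Mast cells and basophils bind IgE through a receptor whose alpha chain is encoded by Fcer1a and whose beta chain is encoded by Ms4a2, and they release histamine, proteases and lipid mediators from granules or on demand. Both arise from bone marrow progenitors under GATA2, and mast cells also need MITF, which binds M-box motifs and is linked to the KIT receptor pathway. Accessible chromatin at such genes in LSK cells marks DNA that is open in at least some of the sorted cells, and need not mean that the gene is expressed.

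To show what DNA lies at the start sites of these genes, the 250 bases before the start are printed for 4 genes whose start sites range from having no peak to having the strongest of the 61. They are RefSeq sequence of build GRCm38.p6 (mm10), written 5′ to 3′ along the gene. Capitals mark GATA words, that is GATA with an A or T before it and an A or G after it, on either strand. The Cpa3 window is chr3:20242182-20242431 (minus strand), the Ms4a2 window chr19:11623720-11623969 (minus strand), the first Il1rl1 window chr1:40429320-40429569 (plus strand) and the upstream Mitf window chr6:97806808-97807057 (plus strand).
Cpa3: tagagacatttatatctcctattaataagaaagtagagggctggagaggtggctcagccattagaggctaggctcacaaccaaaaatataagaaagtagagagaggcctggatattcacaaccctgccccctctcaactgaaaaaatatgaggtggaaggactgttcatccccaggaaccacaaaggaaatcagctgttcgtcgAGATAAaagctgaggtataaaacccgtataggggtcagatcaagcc
Ms4a2: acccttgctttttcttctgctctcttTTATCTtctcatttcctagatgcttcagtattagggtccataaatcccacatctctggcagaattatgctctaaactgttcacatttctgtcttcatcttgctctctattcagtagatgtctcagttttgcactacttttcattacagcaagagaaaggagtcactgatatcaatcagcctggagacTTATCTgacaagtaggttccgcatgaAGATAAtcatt
Il1rl1: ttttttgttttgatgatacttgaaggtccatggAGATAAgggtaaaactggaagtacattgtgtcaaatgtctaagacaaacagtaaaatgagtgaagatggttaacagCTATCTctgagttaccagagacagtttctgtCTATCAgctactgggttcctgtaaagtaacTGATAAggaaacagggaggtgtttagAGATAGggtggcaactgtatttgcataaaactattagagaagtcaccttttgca
Mitf: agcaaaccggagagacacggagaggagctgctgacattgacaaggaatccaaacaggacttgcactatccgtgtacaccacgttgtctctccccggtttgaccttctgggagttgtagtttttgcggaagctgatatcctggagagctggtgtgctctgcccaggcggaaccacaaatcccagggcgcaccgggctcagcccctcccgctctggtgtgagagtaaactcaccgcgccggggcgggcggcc
The Cpa3 window held 1 GATA word and lay under a peak that was raised in Idh2 R172K. The Ms4a2 window held 3 and the Il1rl1 window 5, and no peak lay over either. This Il1rl1 window lies inside the gene, whose upstream boundary at 40404864 lay under another peak. The upstream Mitf window held no GATA word and 15 CpG sites, against 3 in Cpa3, 1 in Ms4a2, 0 in Il1rl1 and a median of 6 over all 32851 RefSeq windows of this length, and it lay under the strongest of the 61 peaks. At least 1 GATA word was found in 26.5% of all windows. Searched in the same way on both strands, the M-box words CATGTG and CACGTG occurred in 17.6% of all windows and in none of these 4. The RUNX word TGTGGT occurred in 14.0% of all windows, in Cpa3 and in upstream Mitf. The ETS word GAGGAA occurred in 23.3% of all windows and the AP-1 word TGANTCA in 6.75%, and neither in these 4. The C/EBP word, TTGC followed by any 2 bases and AA, occurred in 9.56% of all windows, in Il1rl1 and in upstream Mitf. The words were counted one by one, whether or not they overlapped. RefSeq windows were matched for 7 of the 8 genes, and Prg2 is named only.

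Counts in peaks ran from 10.5 M to 27.89 M per library. The 3 peaks at Xist parted the libraries into 10 with 3.87 to 4.89 CPM (counts per 1000000, here without TMM scaling) and 10 with 22.6 to 30.12 CPM. Each genotype had libraries in both sets, and all other CPM values are TMM-scaled. Peaks named for the deleted gene do not check the knockout label: of 30 peaks named for Tet2, 1 was lower in every Tet2 KO library than in any WT library and 1 was higher, and the labels do not say which part was removed. Of the 2 positive markers of the gate, Kit had 61.5 to 68.1 CPM at its start site in WT and Ly6a, which encodes Sca1, 1.02 to 1.25. The progenitor genes Cd34 and Flt3 had 24.0 to 25.8 and 71.7 to 80.2. For mature B, T, neutrophil, erythroid, macrophage and stromal cells 9 of 18 marker genes had no start-site peak, among them Cd79a, Ms4a1, Cd3e, Cd3g, Ly6g and Epor. The start-site peaks of the other 9 summed to 71.5 to 86.1 CPM in WT and 72.3 to 81.8 in Idh2 R172K. The sum does not show the single markers. In Idh2 R172K 5 lay below all WT libraries, 1 above and 3 overlapped WT. The macrophage markers Cd68 (21.4 to 27.6 CPM in WT, 13.0 to 19.0 in Idh2 R172K) and Adgre1 (5.26 to 8.16 and 3.60 to 4.92) were lower. So were Cd4 of T cells (1.10 to 1.85 and 0.487 to 0.923), S100a8 of neutrophils (1.25 to 2.05 and 0.584 to 1.04) and Slc4a1 of erythroid cells (0.417 to 0.657 and 0.195 to 0.346). The stromal marker Pdgfrb was higher (13.3 to 16.5 and 19.1 to 24.5). Their part in the results below was not tested.

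In WT the 61 peaks were about as open as peaks elsewhere. Their median was 2.35 CPM with a range from 0.477 to 37.9, against a median of 2.63 CPM over the 123908 tested peaks. Per kilobase the medians were 5.15 and 5.05 CPM, and 27 of the 61 lay above the median of all peaks. By the class that the authors deposited, 25 were intergenic, 24 intronic, 8 in promoters, 3 at transcription ends and 1 exonic. All 61 passed the filter on low counts.

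Idh2 R172K changed many of the peaks, in both directions. It raised 17 of the 61 and lowered 19, or 27.9% and 31.1%, where it raised 25.1% and lowered 27.9% of all tested peaks, so the shares lie near the background. Of the 36 calls, 18 held in all 17 other settings tried per peak, 8 of them raised and 10 lowered, among them all 4 of Cpa3. The median log2 fold change was -0.10 over the 61 and 0.006 over all tested peaks, and 7 peaks rose and 7 fell by more than 2-fold. That is 11.5% each way, where 3.63% of all tested peaks rose and 13.2% fell by as much. The calls did not go the same way in every gene. Cpa3 had 4 raised and no lowered peaks of 8, Ms4a2 3 and none of 3, Hdc 2 and 4 of 9, Il1rl1 2 and 6 of 14, Mitf 6 and 8 of 24, Epx none and 1 of 2, and Prg2 none of 1. By class, 3 of 8 promoter peaks rose and 1 fell, 6 of 24 intronic peaks rose and 12 fell, and 6 of 25 intergenic peaks rose and 6 fell. The shares called in each class over all tested peaks were not computed, so these counts do not show a trait of these genes. A call meant an adjusted p under 0.05 in edgeR's quasi-likelihood test, with Benjamini-Hochberg adjustment over all tested peaks. As the samples are bulk, a change in the share of cells with an open site and a change in its openness per cell cannot be told apart.

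**Figure D1:**
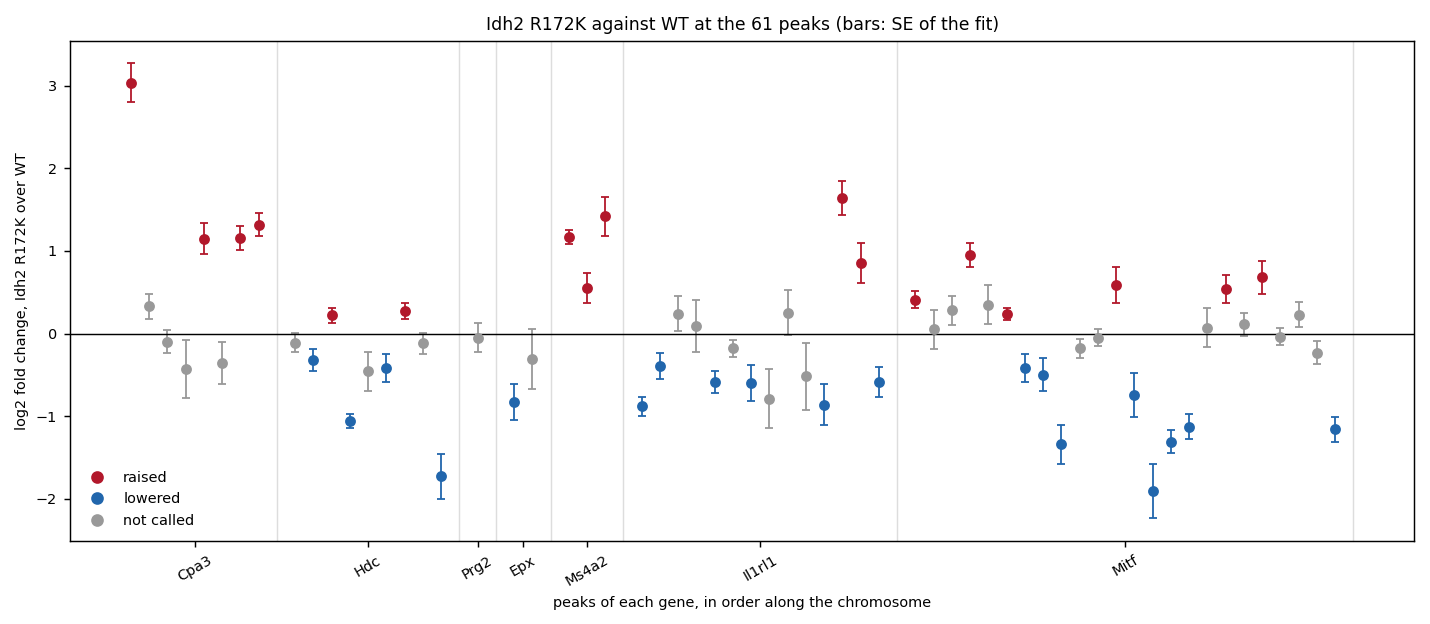
Log2 fold change of Idh2 R172K over WT (y axis) for each of the 61 peaks, ordered along the chromosome within each gene (x axis). Points are estimates of the edgeR fit over 4 libraries per genotype, bars are standard errors, and colour gives the call. The called Cpa3 and Ms4a2 peaks all lie above 0, from 0.55 to 3.04, while Hdc, Il1rl1 and Mitf have called peaks on both sides.

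Cpa3 encodes carboxypeptidase A3, a protease of mast cell granules. Its 4 called peaks, all higher in Idh2 R172K, lay beyond the end of the gene, in an intron, over the start site and just upstream. The peak with the largest rise of the 61 lay 26243 bp beyond the end of the gene (chromosome 3, 20189136 to 20189610). It held 0.341, 0.573, 0.657 and 0.492 CPM in the 4 WT libraries and 4.04, 3.60, 3.88 and 5.01 CPM in Idh2 R172K. In Idh1 R132H it held 0.355 to 0.740, in Idh2 R140Q 0.529 to 0.649 and in Tet2 KO 0.244 to 0.934 CPM, so all 4 Idh2 R172K libraries lay above every other library. The log2 fold change over WT was 3.04 ± 0.232 (SE, adjusted p = 2.09e-14).

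Over the Cpa3 start site, 71 bp from it by the peak's centre, the promoter peak at 20241933 to 20242571 covers the printed window. Its levels were 3.45, 3.27, 4.01 and 4.47 CPM in WT and 8.31, 8.67, 7.47 and 9.57 CPM in Idh2 R172K. Idh1 R132H libraries had 2.90 to 4.30, Idh2 R140Q 3.09 to 5.69 and Tet2 KO 3.07 to 5.25 CPM, which overlap WT and lie below every Idh2 R172K library. The log2 fold change was 1.16 ± 0.148 (adjusted p = 4.69e-08). The peak 1910.5 bp upstream of the gene at 20243821 to 20244418 rose with it, from 2.09, 1.72, 2.63 and 2.05 CPM to 4.65, 4.87, 5.40 and 5.91 CPM (log2 fold change 1.32 ± 0.142, adjusted p = 2.8e-10). The intronic peak at 20228997 to 20229359 went from 1.35 ± 0.271 to 2.91 ± 0.457 CPM (mean ± SD of 4 libraries), by 1.15 on the log2 scale (adjusted p = 1.76e-06). In neither peak did WT and Idh2 R172K libraries overlap. The 4 peaks not called, at 0.535 to 3.56 CPM in Idh2 R172K, had log2 fold changes from -0.43 to 0.33, and the uppermost (20197572 to 20198520) had adjusted p = 0.061.

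Ms4a2 encodes the beta chain of the high-affinity IgE receptor. No peak lay over its start site or within the gene, and its 3 peaks followed one another beyond the gene's end on chromosome 19. The farthest, at 11611569 to 11612076 and 3694.5 bp from the gene, held 8.53, 8.10, 8.80 and 8.25 CPM in WT and 19.5, 17.2, 17.6 and 21.0 CPM in Idh2 R172K. The genotypes did not overlap, and this was the smallest adjusted p of the 61 peaks (log2 fold change 1.17 ± 0.0868, adjusted p = 9.49e-15). Tet2 KO libraries, with 9.71, 9.40, 9.81 and 9.31 CPM, also lay above every WT library, by a log2 fold change of 0.19 that missed the threshold (adjusted p = 0.302). The middle peak at 11612961 to 11613587 rose from 5.35 ± 0.849 to 7.96 ± 0.995 CPM (0.55 ± 0.18, adjusted p = 0.0131), a call that was lost without Idh2 R172K replicate 1 (0.48, adjusted p = 0.0532). The peak nearest to the gene, 474.5 bp from it at 11614962 to 11615123, held 0.948, 0.614, 0.854 and 0.943 CPM in WT and 2.50, 2.53, 1.74 and 2.42 CPM in Idh2 R172K (1.42 ± 0.24, adjusted p = 4.16e-06). Fcer1a, the alpha chain of the same receptor, had no peak to compare.

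**Figure D2:**
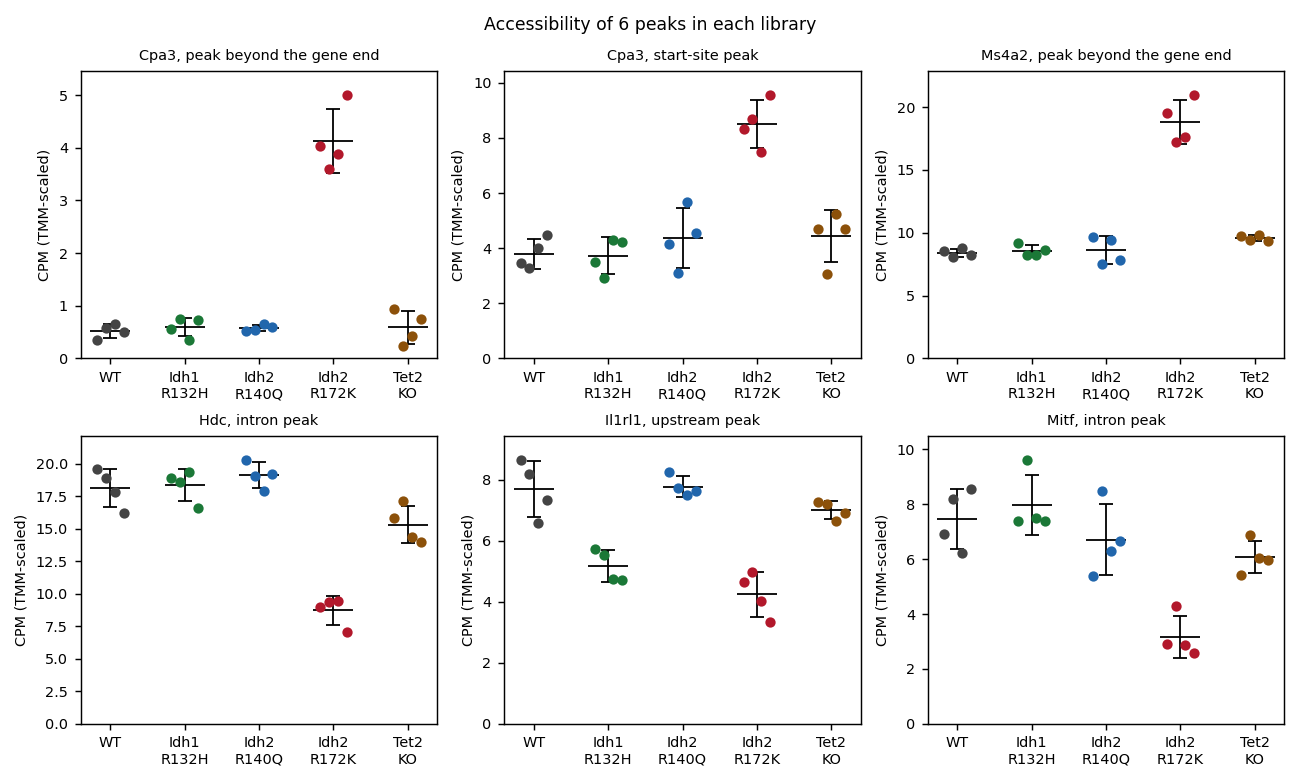
CPM (TMM-scaled, y axis from 0) of 6 peaks in each of the 20 libraries, by genotype (x axis). Points are libraries, the line is the mean and the bar the SD of 4. Idh2 R172K stands above all other libraries at both Cpa3 peaks and at Ms4a2 and below them at Hdc and Mitf, while at the Il1rl1 peak Idh1 R132H (4.71 to 5.74 CPM) lies low as well.

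Hdc encodes histidine decarboxylase, which makes histamine. Its most open peak lay in an intron on chromosome 2 (126601957 to 126602696) and was the one most reduced in CPM. It held 19.6, 18.9, 17.8 and 16.2 CPM in WT, 9.0, 9.35, 9.46 and 7.04 CPM in Idh2 R172K and 15.8, 17.1, 14.4 and 14.0 CPM in Tet2 KO. All Idh2 R172K libraries lay below all others (log2 fold change -1.06 ± 0.0883, adjusted p = 3.07e-13), and Tet2 KO overlapped WT (-0.25, adjusted p = 0.0866). The peak at 126621191 to 126621540, 2687.5 bp from the start site, held 1.25, 1.10, 1.45 and 1.48 CPM in WT, 0.462, 0.0974, 0.481 and 0.338 CPM in Idh2 R172K and 0.654, 0.682, 0.811 and 0.864 CPM in Tet2 KO. Neither mutant overlapped WT, with log2 fold changes of -1.73 ± 0.272 (adjusted p = 1.09e-06) and -0.78 ± 0.229 (adjusted p = 0.0483).

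The other Hdc peaks changed less. At the start site (126618454 to 126619463) the levels were 3.60 ± 0.424 CPM in WT and 3.37 ± 0.339 in Idh2 R172K (SD, n = 4 each), a difference that missed the threshold (log2 fold change -0.12, adjusted p = 0.471). The same peak held 4.58 ± 0.75 CPM in Idh1 R132H, and Idh2 R172K was below Idh1 R132H (-0.43, adjusted p = 0.00478) and below Idh2 R140Q (-0.32, adjusted p = 0.0402). The call against Idh2 R140Q was lost in 9 of 17 other settings, among them DESeq2 (adjusted p = 0.0832), cyclic loess scaling (0.104) and leaving out Idh2 R140Q replicate 1, 2 or 4 or Idh2 R172K replicate 3 or 4 (0.0642 to 0.154). The call against Idh1 R132H was lost in 1, within the libraries low at Xist (-0.28, adjusted p = 0.190). The intronic peak at 126609585 to 126610105 rose from 8.39 ± 1.01 to 10.3 ± 0.876 CPM in Idh2 R172K (0.27, adjusted p = 0.0178), with overlap between the genotypes. The promoter-class peak at 126599014 to 126599487 rose by 0.22 (adjusted p = 0.0455), and 2 further peaks (126597309 to 126597705 and 126607548 to 126607994) fell by 0.32 and 0.42 on the log2 scale. These 4 calls depended on single libraries. The one at 126609585 was lost without WT replicate 4 (0.20, adjusted p = 0.104) or Idh2 R172K replicate 2 (0.23, adjusted p = 0.0607). The other 3 were each lost without any 1 of 4 or more of the libraries, with adjusted p from 0.0538 to 0.184 then.

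Prg2 and Epx encode eosinophil granule proteins, the major basic protein and eosinophil peroxidase. The Prg2 promoter peak (chromosome 2, 84980158 to 84980787) held 2.20, 1.72, 2.37 and 2.50 CPM in WT and 2.19, 2.63, 1.81 and 2.03 CPM in Idh2 R172K, and the means of the 5 genotypes ran from 2.15 to 2.24 CPM. No comparison called it (log2 fold change -0.05 ± 0.172 in Idh2 R172K, adjusted p = 0.808). The intronic Epx peak (chromosome 11, 87874779 to 87875176) held 1.56, 1.23, 1.91 and 1.60 CPM in WT and 0.923, 0.682, 0.998 and 0.732 CPM in Idh2 R172K. The genotypes did not overlap (-0.83 ± 0.223, adjusted p = 0.00192). The other Epx peak, at 0.494 ± 0.146 CPM in WT, was among the weakest and was not called (-0.31, adjusted p = 0.491).

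Il1rl1 encodes ST2, the receptor for interleukin 33. Its 14 peaks lie on chromosome 1 over and upstream of the gene, and Idh2 R172K lowered 6 and raised 2 of them. The upstream peak at 40391248 to 40391868, 13306 bp before the gene, held 8.65, 8.18, 6.57 and 7.34 CPM in WT, 5.74, 5.52, 4.73 and 4.71 CPM in Idh1 R132H and 4.65, 4.97, 4.03 and 3.32 CPM in Idh2 R172K. Idh2 R140Q (8.26, 7.73, 7.49 and 7.62 CPM) and Tet2 KO (7.28, 7.21, 6.64 and 6.91 CPM) stayed within the WT range. Both Idh1 R132H (-0.58 ± 0.108, adjusted p = 0.0142) and Idh2 R172K (-0.88 ± 0.114, adjusted p = 2e-08) lay below all WT libraries. Idh2 R172K was lower than Idh1 R132H by 0.30 on the log2 scale with overlap (adjusted p = 0.0327). That call was lost in 7 of 17 other settings, among them DESeq2 (adjusted p = 0.0574), both Xist sets (0.144 and 0.172) and leaving out Idh1 R132H replicate 1 or 2 or Idh2 R172K replicate 3 or 4 (0.0742 to 0.157).

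This Il1rl1 peak was the 1 peak of the 61 that Idh1 R132H lowered, and it raised none (2 peaks had a positive and 3 a negative log2 fold change at an unadjusted p under 0.05, and DESeq2 also lowered 1 and raised 0). Over all tested peaks Idh1 R132H lowered 0.021% and raised 0.00646%. With the replicate number as a block, 2 of the 61 were lowered, the second being the Il1rl1 peak at 40397438 to 40397758 (-1.18, adjusted p = 0.0232). The block pairs samples by number, and in this comparison the number also follows the Xist set. There WT held 1.59, 0.859, 1.58 and 0.984 CPM and Idh1 R132H 0.603, 0.626, 0.394 and 0.589, with no overlap and adjusted p = 0.0841 without the block. The call at 40391248 was lost without WT replicate 1 (-0.52, adjusted p = 0.141), WT replicate 2 (-0.55, adjusted p = 0.0923), Idh1 R132H replicate 3 (-0.54, adjusted p = 0.148) or Idh1 R132H replicate 4 (-0.54, adjusted p = 0.127). Within the libraries low at Xist its log2 fold change was -0.56 (adjusted p = 0.284) and within those high at Xist -0.61 (adjusted p = 0.843). Il1rl1 and Idh1 share chromosome 1: the called peak lies 24.8 Mb from Idh1, and 24 of the 34 peaks that Idh1 R132H changed anywhere lie on that chromosome, which holds 6.87% of tested peaks. The part of this position in the result was not tested.

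Inside Il1rl1 an intronic peak at 40437304 to 40437810, 2072 bp from a start site, rose in Idh2 R172K from 0.759, 0.737, 0.657 and 0.820 CPM to 2.12, 2.05, 2.44 and 2.76 CPM, and no other genotype reached those levels. The log2 fold change was 1.64 ± 0.204 (adjusted p = 8.91e-09). The peak next to it, at 40441892 to 40442135, rose from 0.832 ± 0.384 to 1.58 ± 0.0366 CPM (0.86, adjusted p = 0.00272). Among the lowered peaks, the one at 40404503 to 40405104 spans the gene's upstream boundary at 40404864, with its centre 60.5 bp before it. That peak fell from 4.27 ± 0.617 to 2.89 ± 0.158 CPM (-0.59, adjusted p = 0.00024), without overlap. An intronic peak (40430097 to 40430552) lay 754.5 bp from the start site of the printed window, which is inside the gene. It fell by 0.86 on the log2 scale (adjusted p = 0.00368), and there 1 WT library lay within the Idh2 R172K range. The call at 40404503 was lost within the libraries high at Xist (-0.49, adjusted p = 0.0587) and the one at 40441892 within those low at Xist (0.62, adjusted p = 0.117).

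Mitf encodes the transcription factor that mast cells and melanocytes need. The peak over its upstream start site (chromosome 6, 97806679 to 97807608) was the strongest of the 61 and stood at the 95.3rd percentile of all tested peaks in WT. It held 38.3, 36.7, 37.3 and 39.3 CPM in WT and 44.6, 41.9, 40.6 and 52.5 CPM in Idh2 R172K. The genotypes did not overlap, and the rise was small (0.24 ± 0.0734, adjusted p = 0.00527). The peak over the next start site downstream (97929194 to 97929963) held 4.23 ± 0.333 CPM in WT, 4.71 ± 0.664 in Idh2 R172K and 5.73 ± 0.93 in Tet2 KO, none of them called against WT (adjusted p = 0.521 for Idh2 R172K and 0.0596 for Tet2 KO). No peak lay over the third start site of the RefSeq table. Without Idh2 R172K replicate 4 the call at the upstream start site was lost (0.16, adjusted p = 0.0687), as it was with cyclic loess scaling (0.10, adjusted p = 0.143).

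Within the introns of Mitf several peaks fell together in Idh2 R172K. The peak at 97857516 to 97858199, 50799.5 bp from the upstream start site, held 6.90, 8.18, 6.24 and 8.57 CPM in WT and 2.89, 4.29, 2.88 and 2.59 CPM in Idh2 R172K (-1.31 ± 0.143, adjusted p = 6.04e-10). Its weak neighbour at 97856542 to 97856746 held 1.10, 1.39, 0.723 and 1.03 CPM in WT, 0.192, 0.195, 0.296 and 0.450 in Idh2 R172K and 0.467, 0.390, 0.734 and 0.563 in Tet2 KO. Idh2 R172K lay below all WT libraries there (-1.91 ± 0.324, adjusted p = 4.29e-06), while 1 Tet2 KO library overlapped WT (-0.98 ± 0.272, adjusted p = 0.0342). The peaks at 97866510 to 97867192 (-1.13, adjusted p = 2.99e-08) and 97818887 to 97819207 (-1.34, adjusted p = 9.34e-06) fell as well. So did a distant peak 92533.5 bp beyond the gene (98113621 to 98114166), from 4.10, 3.81, 4.27 and 4.88 CPM to 1.58, 1.85, 1.96 and 2.31 CPM (-1.16 ± 0.149, adjusted p = 1.9e-08). Raised peaks lay before, within and between these, the largest of them 18063.5 bp before the gene at 97788471 to 97789406, with 2.59 ± 0.431 CPM in WT and 5.10 ± 1.14 in Idh2 R172K (0.95 ± 0.145, adjusted p = 6.24e-07).

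**Figure D3:**
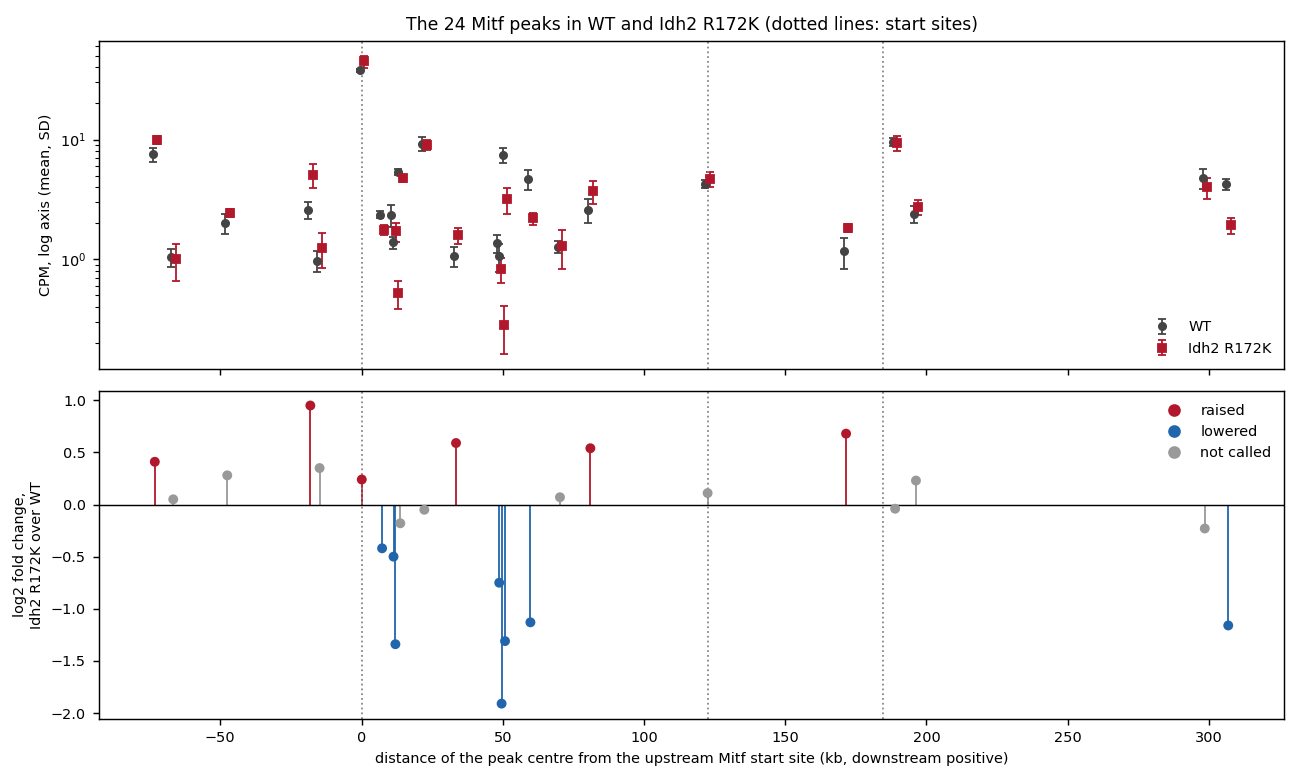
Mitf peaks by the distance of their centre from the upstream start site (x axis, kb). The upper panel gives CPM on a log axis (mean and SD of 4 libraries) in WT and Idh2 R172K, slightly offset to the sides, and the lower panel the log2 fold change, coloured by call, with dotted lines at the RefSeq start sites. The 6 raised and 8 lowered peaks are interspersed, and the largest falls, to -1.91, lie between the upstream and the next start site.

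Summed over its peaks, each gene gives one accessibility per library. Cpa3 summed to 15.9, 14.9, 18.2 and 16.2 CPM in WT and 29.7, 25.9, 28.4 and 32.1 CPM in Idh2 R172K. Ms4a2 went from 15.6, 14.8, 14.4 and 13.7 to 30.9, 28.4, 26.4 and 30.6 CPM. Both sums in Idh2 R172K lay above every other library. Hdc went the other way, from 62.3 ± 4.18 to 50.1 ± 1.44 CPM (SD, n = 4 each), with Tet2 KO at 54.6 ± 2.93. Il1rl1 had 32.6 ± 2.48 CPM in WT, 26.8 ± 1.74 in Idh2 R172K, 28.2 ± 0.985 in Idh1 R132H and 28.5 ± 0.855 in Tet2 KO. Mitf, whose raised and lowered peaks offset each other, had 118 ± 5.28 CPM in WT and 120 ± 4.69 in Idh2 R172K, and these overlapped. The sums are descriptions and were not tested.

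**Figure D4:**
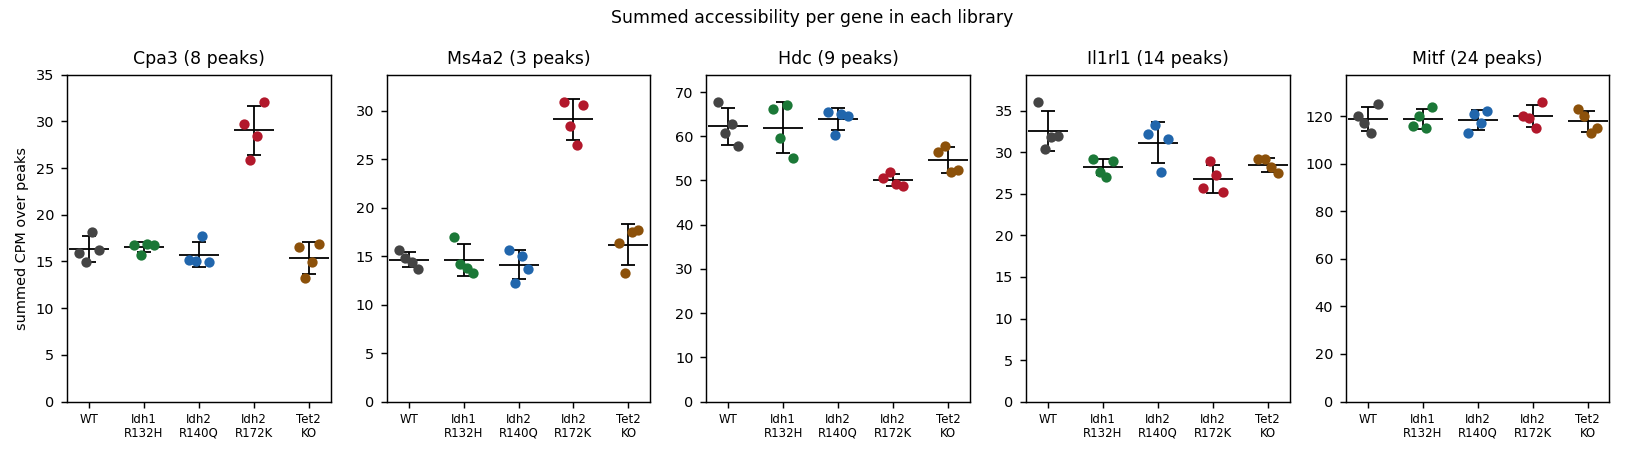
CPM summed over all peaks of a gene (y axis from 0) in each of the 20 libraries, by genotype (x axis). Points are libraries, lines are means and bars SDs of 4. Cpa3 and Ms4a2 in Idh2 R172K lie at 25.9 CPM or more, above every other library, and the Mitf sums overlap in all genotypes.

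Idh2 R140Q changed none of the 61 peaks by edgeR (lowest adjusted p = 0.783), nor by DESeq2 or with the replicate block, and none had a positive and 3 a negative log2 fold change at an unadjusted p under 0.05. Over all tested peaks it raised 0.00807% and lowered 0.00726%. Its log2 fold changes ran from -0.81 to 0.54. Tet2 KO lowered 2 of the 61 (3.28%), the Hdc peak at 126621191 and the Mitf peak at 97856542 given above, and raised none, where it lowered 2.32% and raised 0.785% of all tested peaks. At an unadjusted p under 0.05, 3 had a positive and 8 a negative log2 fold change, and DESeq2 called none. Leaving out any single library of the comparison left at most 1 of the 2 lowered calls: the Hdc call was lost without any 1 of the 8 libraries, with adjusted p from 0.0567 to 0.136, and the Mitf call without WT replicate 1, 2 or 4 or Tet2 KO replicate 1, 2 or 4, with adjusted p from 0.0597 to 0.172. Without Tet2 KO replicate 2 the Hdc intron peak at 126601957 was lowered (-0.30, adjusted p = 0.0365) and the Mitf start-site peak at 97929194 raised (0.54, adjusted p = 0.0141). The comparisons with WT share the WT libraries, so their calls are not independent of each other.

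The mutants were also compared with Idh2 R172K directly. Against Idh1 R132H, Idh2 R172K had 17 peaks raised and 16 lowered of the 61, with 23.3% and 26.7% of all tested peaks in the same directions. Against Idh2 R140Q it had 15 raised and 14 lowered (21.5% and 25.5% of all tested peaks), and against Tet2 KO 16 raised and 11 lowered (20.1% and 24.1%). The Cpa3 peak beyond the gene was 2.82, 2.83 and 2.80 higher on the log2 scale than in Idh1 R132H, Idh2 R140Q and Tet2 KO, and the farthest Ms4a2 peak 1.14, 1.12 and 0.98. The Hdc intron peak differed by -1.07, -1.14 and -0.81 in the same order, each with an adjusted p of 7.29e-10 or less. The Il1rl1 peak at 40397438, low in Idh1 R132H, was 1.40 higher in Idh2 R172K than in Idh1 R132H (adjusted p = 8.62e-06). These 3 comparisons share the Idh2 R172K libraries.

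Further genes mark mature mast cells and basophils. The start sites of Mcpt4 and Tpsb2, proteases of mature mast cells, and of Prss34, a basophil protease, had no peak. At its start site Cma1, a mast cell chymase, had 0.417 to 0.818 CPM in WT and 0.732 to 1.08 in Idh2 R172K, which overlap. Mcpt8, a basophil protease, had 4.51 to 6.04 and 3.72 to 6.54 CPM. Cd200r3, a receptor of basophils and mast cells, held 0.900 to 1.05 CPM in WT and 1.56 to 1.85 in Idh2 R172K, with no overlap. Summed over the 3 of 6 marker genes with a start-site peak, WT had 6.03 to 7.69 and Idh2 R172K 6.25 to 9.13 CPM, which overlap. The part of such cells in the changes at Cpa3 and Ms4a2 was not tested.

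The wider pathway was read from 80 further genes in 6 groups, chosen with earlier results of these data known, of which 73 had peaks, 897 in all. In Idh2 R172K 227 of these rose and 258 fell, with a median log2 fold change of -0.02. These are 25.3% and 28.8%, near the 25.1% and 27.9% of all tested peaks. Granule content had 13 raised and 13 lowered of 42 peaks, with a median of 0.00: Srgn, the proteoglycan core of granules, fell (-0.93), while Slc18a2, which loads amines into granules, rose from 17.9 ± 1.21 to 32.0 ± 3.77 CPM (0.85). A peak 18649 bp from Cma1 rose from 1.28 ± 0.287 to 2.61 ± 0.672 CPM without overlap (1.07, adjusted p = 1.12e-05). IgE receptor signalling had 39 raised and 63 lowered of 179 (median -0.16), among them a peak near Syk, the kinase recruited to the receptor (-1.64), and the start-site peaks of Lat2, an adaptor (-1.09), and Fcer1g, the receptor's gamma chain, which fell from 11.9 ± 1.2 to 5.45 ± 0.411 CPM (-1.15, adjusted p = 9.03e-12). Cytokines and their receptors had 39 and 44 of 145 (median -0.02), lipid mediators 25 and 28 of 88 (median 0.00), with Ptgs1, a cyclooxygenase, at -1.51, and eosinophil genes 14 and 10 of 50 (median 0.06).

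Transcription factors of the lineage had 97 raised and 100 lowered of 393 peaks in Idh2 R172K (median 0.02). These are 24.7% and 25.4%, against 25.1% and 27.9% of all tested peaks. Of the peaks that took Gata2, the factor that both lineages need, the one with the lowest adjusted p lay 27631.5 bp from the gene. It fell from 11.6 ± 0.816 to 1.35 ± 0.315 CPM in Idh2 R172K (-3.09, adjusted p = 1.86e-20) and to 6.47 ± 0.557 CPM in Tet2 KO (-0.83, adjusted p = 5.12e-06). Other Gata2 peaks are not described here. An intronic peak of Il18r1, an interleukin 18 receptor chain and close neighbour of Il1rl1 (chromosome 1, 40469757 to 40470464), was the 1 peak of the 897 that Idh1 R132H lowered: 10.2 ± 0.668 CPM in WT, 6.94 ± 0.508 in Idh1 R132H (-0.56, adjusted p = 0.0115), 2.46 ± 0.573 in Idh2 R172K (-2.03, adjusted p = 9.85e-18) and 6.61 ± 0.261 in Tet2 KO (-0.62, adjusted p = 0.000116). That is 0.111% of the 897, against 0.021% of all tested peaks. Like Il1rl1, Il18r1 shares chromosome 1 with Idh1, where 24 of the 34 Idh1 R132H calls lie. The part of this position was not tested. Tet2 KO raised 4 and lowered 15 of the 897 (0.446% and 1.67%, against 0.785% and 2.32% of all tested peaks), and DESeq2 raised 1 and lowered 15. Idh2 R140Q changed none by edgeR or DESeq2, with 20 positive and 36 negative at an unadjusted p under 0.05.

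**Figure D5:**
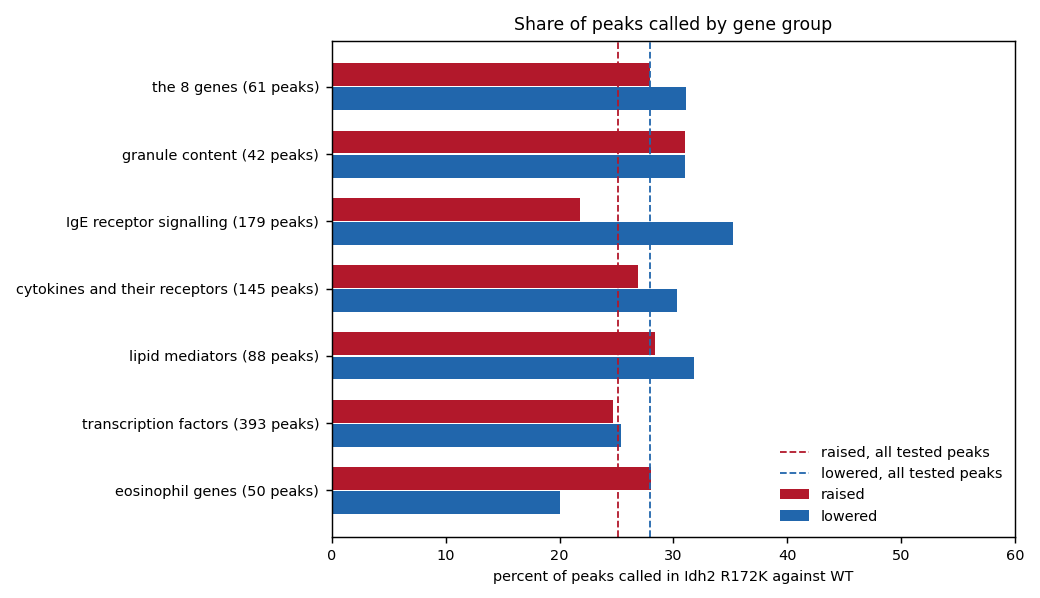
Percent of peaks raised and lowered in Idh2 R172K against WT (x axis) for the 8 genes and the 6 groups of further genes (y axis, with numbers of peaks). Dashed lines are the shares over all 123908 tested peaks, 25.1% raised and 27.9% lowered. The groups lie on both sides of the lines, with 21.8% raised and 35.2% lowered for IgE receptor signalling and 28.0% and 20.0% for eosinophil genes.

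By a rule of likeness, the Pearson correlation of log2 CPM over the 20 libraries with peaks of other genes, the Cpa3 start-site peak was most like a peak near Adamts5 (r = 0.951) and one of Acss2 (0.941). The peak taken was the one with the highest mean CPM of each gene. The farthest Ms4a2 peak was most like peaks of Zbtb40 (0.988) and Fhdc1 (0.986), and the Hdc intron peak like peaks of Card10 (0.985) and Pag1 (0.980). The upstream Mitf peak was most like peaks of Tbc1d2 (0.964) and Hip1 (0.956), and the intronic Epx peak like peaks of Tcf7l2 (0.900) and Col6a4 (0.899). The Il1rl1 peak at 40409818 to 40410482 (0.840 with Cog7) and the Prg2 peak (0.812 with Endov) had no likeness as high. The points share libraries, genotype and depth, so these values describe the pattern only.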

How the data were processed

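ATAC-seq libraries of LSK cells, 20 in all and 4 for each of 5 genotypes, were analysed from 1 deposited table of counts per peak, whole numbers that the authors did not normalize, over a peak set common to all libraries, and 1 deposited annotation of the same 125343 peaks. The tools named per the submitters' processing notes are featureCounts, MACS2, BWA, Trim Galore, SAMtools and Picard, and the build is mm10. Not given in the sources used here are the tools' order, versions and settings, any shift of reads to the transposase position, and whether a count is a read or a fragment. Columns were tied to samples by genotype and replicate number. The 4 columns whose name joins Idh1 with R140Q were taken as Idh2 R140Q, the 1 genotype with that change. Total counts in peaks ran from 10.5 M to 27.89 M per library.

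Peaks took genes by position among 21900 protein-coding RefSeq genes of GRCm38.p6, and the class is the authors' own. Coordinates count from 1. edgeR 4.0.16 (R 4.3.3) was run with TMM scaling, its filter on low counts, which left 123908 peaks and removed 1435, and a robust quasi-likelihood fit over all 20 libraries with 1 mean per genotype. Adjusted p-values are 2-sided Benjamini-Hochberg values over all tested peaks, with a threshold of 0.05. Levels are CPM, counts per 1000000 with TMM-scaled totals (unscaled totals at Xist), computed here, and log2 fold changes with their SE come from the fit. This fit was first tested on simulated data.

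The members and gene lists were chosen with earlier results of these data known. By rule, named peaks were, for each gene, the tested peak nearest its start site, up to 3 more with the lowest adjusted p in any comparison with WT, and every peak called in Idh1 R132H, Idh2 R140Q or Tet2 KO, 23 of the 61. From each group of further genes the rule took up to 3 genes with the lowest adjusted p in Idh2 R172K and up to 3 called elsewhere. Other peaks in the text were chosen after their values were seen. Alternatives were library-size and cyclic loess (limma 3.58.1) scaling, no filter, DESeq2 1.42.0, a replicate block, the Xist set as a term, only the 2 genotypes compared, a threshold of 0.01, and, chosen after seeing the data, only peaks whose centre lies inside the gene and fits within each Xist set, and leaving out each library. Samples with the same replicate number were checked for pairing by the correlation of their deviations from the group means across peaks. It exceeded 0.1 for every pair in Idh1 R132H against WT (0.102 to 0.232) and Idh2 R140Q against WT (0.115 to 0.275). This comes from the data, as the labels do not say that a number marks a shared day or litter. In WT and the 3 Idh genotypes, replicates 1 and 3 were low at Xist and 2 and 4 high, so the number there also carries the Xist set. In Tet2 KO, replicates 1 and 2 were low and 3 and 4 high. The part of the Xist set in these correlations was not tested.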

Additional observations from a re-analysis of the deposited data

Results flagged for a closer look

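Within each genotype, the library farthest from the others was set against the range of the 4 at the named peaks. Of 115 groups examined, 5 held a library whose gap to the next was past Dixon's critical value for 4 samples, about as many as the 1 in 20 that chance gives. At the intronic Il1rl1 peak at 40430097 to 40430552, WT replicate 2 was lowest with 1.06 CPM, against 1.64 to 1.72 in the other WT libraries. At the upstream Mitf start-site peak (97806679 to 97807608), Idh1 R132H replicate 4 was highest with 43.2 CPM, against 37.0 to 37.6. At the intronic Mitf peak at 97857516 to 97858199, Idh1 R132H replicate 2 was highest with 9.62 CPM, against 7.39 to 7.49. At the Ms4a2 peak nearest to the gene (11614962 to 11615123), Idh1 R132H replicate 1 was highest with 1.28 CPM, against 0.473 to 0.569, and Idh2 R172K replicate 3 was lowest with 1.74 CPM, against 2.42 to 2.53. Without that Idh2 R172K library or WT replicate 2, the Idh2 R172K calls at these Ms4a2 and Il1rl1 peaks held.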

How the results depend on the processing

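Under other settings, 266 counts of raised or lowered peaks of the 61 were recomputed. Of these, 228 stayed within 1.5 times the count in the report and 38 did not. None of the 128 calls of a peak in a comparison changed sign under another setting. Peaks not called were left out of that check. Where a count moved, the cause was not tested. For Idh1 R132H the 1 lowered peak became 2 with the Xist set as a term and 0 within libraries high at Xist, at a threshold of 0.01 or with only peaks inside the gene. For Idh2 R172K, 9 of the 17 raised lay inside the gene, and the 19 lowered became 12 with cyclic loess scaling, 11 within libraries high at Xist and 12 at 0.01. For Tet2 KO the 2 lowered became 1 with library-size or cyclic loess scaling, 4 with the Xist set as a term, 0 with DESeq2, 1 and 0 within libraries high and low at Xist and 0 at 0.01, and the 0 raised became 1 with the Xist set as a term or only the 2 genotypes. For Idh2 R172K against Idh1 R132H, Idh2 R140Q and Tet2 KO, 7, 6 and 7 raised peaks lay inside the gene. Lowered peaks became 9 against Idh1 R132H and 9 against Idh2 R140Q within libraries high at Xist, 8 against Idh2 R140Q at 0.01 and 6 against Tet2 KO within libraries low at Xist. The fits within Xist sets and the restriction to peaks inside the gene were chosen after seeing the data. Naming by the deposited annotation was not run, as its gene IDs were not paired with symbols here.

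Leaving out each library gave, as raised and lowered, 0 to 0 and 0 to 1 for Idh1 R132H, 0 to 0 and 0 to 0 for Idh2 R140Q, 15 to 17 and 13 to 19 for Idh2 R172K and 0 to 1 and 0 to 1 for Tet2 KO. Idh2 R172K had 14 to 18 and 12 to 17 against Idh1 R132H, 13 to 16 and 10 to 15 against Idh2 R140Q and 15 to 17 and 8 to 11 against Tet2 KO.

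With the replicate block, Idh1 R132H had 0 raised and 2 lowered and Idh2 R140Q 0 and 0. In the other comparisons the correlation did not exceed 0.1 for every pair. There the block gave 17 and 20 for Idh2 R172K, 1 and 3 for Tet2 KO, and for Idh2 R172K 17 and 17 against Idh1 R132H, 16 and 16 against Idh2 R140Q and 17 and 11 against Tet2 KO. Each sample correlated best with its own number in Idh2 R172K against Idh1 R132H, and not in the other 4. The median log2 fold change of all peaks in Idh2 R172K was 0.006 with TMM, -0.069 with library-size and 0.023 with cyclic loess scaling.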

Other observations

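The wider gene groups held further peaks that changed in Idh2 R172K, each with no overlap with WT. Of the transcription factors, a peak near Runx1 fell from 6.63 ± 0.544 to 1.27 ± 0.446 CPM (SD, n = 4 each) and a peak whose nearest gene is Zeb2 rose from 2.46 ± 0.624 to 8.29 ± 1.54 CPM. Of the lipid mediators, an intronic peak of Pla2g4a, which encodes a phospholipase that frees arachidonic acid, fell from 3.17 ± 0.623 to 0.605 ± 0.209 CPM, and a peak near Ltc4s, which encodes leukotriene C4 synthase, rose from 21.1 ± 1.07 to 31.5 ± 1.69 CPM. Of the eosinophil genes, an intronic peak of Ccl24, an eosinophil chemokine, fell from 2.88 ± 0.19 to 0.858 ± 0.165 CPM, a peak near Il5ra, the interleukin 5 receptor, fell from 2.76 ± 0.236 to 1.01 ± 0.321 CPM and a peak near Ccr3, the eotaxin receptor, rose from 6.47 ± 0.871 to 10.7 ± 0.78 CPM. Peaks far from Kit (24.7 ± 0.674 against 11.5 ± 1.34 CPM in WT) and Il6 (19.5 ± 1.97 against 8.54 ± 0.872 CPM) were raised. All of these passed the threshold of edgeR's test. In Tet2 KO, where 4 of the 897 peaks rose and 15 fell, a peak near Irf8 fell from 1.29 ± 0.108 to 0.537 ± 0.141 CPM. The same Ccl24 peak fell to 1.81 ± 0.0548 CPM. The same Il6 peak rose to 10.6 ± 0.557 CPM in Tet2 KO (edgeR adjusted p = 0.041). An intronic peak of Il4 rose from 7.6 ± 1.19 to 10.1 ± 0.953 CPM (edgeR adjusted p = 0.0385). DESeq2 raised 0 peaks of the cytokine and receptor group in Tet2 KO.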
